A study of Mus musculus with 6 samples.

Results

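Interferon-high luminal cells were mammary tumor epithelial cells in which UMIs (unique molecular identifiers, each standing for a captured RNA molecule) of Ifit1, Ifit3 and Iigp1, 3 interferon-stimulated genes, outnumbered those of other luminal gene programs. They numbered 108 of 8588 gated luminal cells, within 24527 deposited tumor cells and 58561 cells of the whole series. A cell was gated as luminal when it held 200 to 4000 genes, at most 25% mitochondrial UMIs and 2 or more UMIs of the epithelial adhesion gene Epcam. It also had no UMI of the leukocyte gene Ptprc or the endothelial gene Pecam1, fewer than 5 of the basal keratins Krt5 and Krt14 together, and at most 1 of the proliferation genes Mki67 and Top2a. Among gated cells, those with an interferon sum (Ifit1, Ifit3 and Iigp1) of at least 4 UMIs were kept when that sum exceeded each of 3 others. The other sums were a secretory one (Lalba, Fcgbp and Atp6v1b1), an Aqp5 one (Aqp5, Tspan8 and Cldn10) and a kallikrein one (Klk6, Klk10 and Dmkn). All of these values chose the cells, so they are given as a description only.

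The series profiled mouse kidney and mammary tumor by droplet 3′ single-cell RNA sequencing, to compare a microfluidic tissue dissociation platform with conventional digestion. The tumor libraries came from MMTV-PyMT mice aged 10 weeks, described as female, in which the mouse mammary tumor virus promoter drives the polyoma middle T oncogene. The control library was a 60 min digest, and the platform libraries were collected at the 15 min and 60 min intervals of the digestion device. All 3 tumor samples were minced, digested with type I collagenase, treated with DNase I and red cell lysis buffer, and sorted for SytoxBlue-negative live cells. No further treatment or allele was named. Each condition had 1 library. By the reporting form of the study, sequencing had a single replicate and conditions of a replicate shared a source mouse, so values below compare these libraries and no test was made between conditions. Intervals cover counting error only: exact binomial for shares, exact Poisson for summed UMIs, exact conditional for ratios of CPM, each at 95%.

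Interferons are secreted cytokines that most cells can sense. Type I and type III interferons act through receptor-bound JAK kinases on a transcription factor complex that binds interferon-stimulated response elements. Their targets include RNA-binding IFIT proteins, immunity-related GTPases such as Iigp1, the ubiquitin-like modifier ISG15 and the machinery that presents peptides on MHC class I, and in mammary tumors such genes are expressed by both malignant and infiltrating cells.

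The tumor libraries held 90414805, 101222030 and 97006183 UMIs in 8177, 8198 and 8152 cells in the order control, 15 min platform and 60 min platform, which is kept for every triplet below. Quality limits left 5736, 5802 and 6024 cells, of which 2906, 3571 and 2111 were gated as luminal. Interferon-high cells numbered 30, 53 and 25. Pairs of libraries shared 16, 20 and 21 cell barcodes (control with 15 min, control with 60 min, and 15 min with 60 min), and no shared barcode was interferon-high in both libraries of a pair. Doublets were treated only through the upper limit on genes and the Ptprc and Pecam1 gates.

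Interferon-high cells were a rare class in every library. Their share of gated luminal cells was 1.03% (0.698 to 1.47) in the control library. It was 1.48% (1.11 to 1.94) in the 15 min and 1.18% (0.768 to 1.74) in the 60 min platform library, and the intervals overlapped. With cells thinned to 5000 UMIs, which left out 704, 498 and 362 shallower cells and 8 of the interferon-high ones, the shares were 0.954% (0.591 to 1.45), 1.11% (0.767 to 1.54) and 1.03% (0.611 to 1.62). Without Iigp1 in the sum the shares of gated cells were 0.482%, 0.952% and 0.568%. As a share of all cells within the quality limits they made up 0.523%, 0.913% and 0.415%, but gated cells themselves made up 50.7%, 61.5% and 35.0% of those cells.

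A larger group of luminal cells reached the interferon sum of 4 UMIs without being led by it. It was reached by 433 gated cells, of which 108 were interferon-high, 217 were led by the secretory sum, 90 by the Aqp5 sum and 11 by the kallikrein sum. In 3 cells other sums tied above it, and in 4 the interferon sum tied with another. Cells at 4 or more made up 3.85% (3.18 to 4.62) of gated cells in the control, 6.55% (5.76 to 7.41) in the 15 min and 4.12% (3.31 to 5.06) in the 60 min platform library. After thinning these shares were 2.18% (1.61 to 2.88), 3.48% (2.86 to 4.19) and 2.23% (1.59 to 3.04), so the 15 min library had the highest share both ways, with intervals that overlapped after thinning. Interferon-high cells had a median interferon sum of 11 against 6 in the cells led by the secretory sum, at median depths of 10010.5 and 12618 UMIs.

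**Figure D1:**
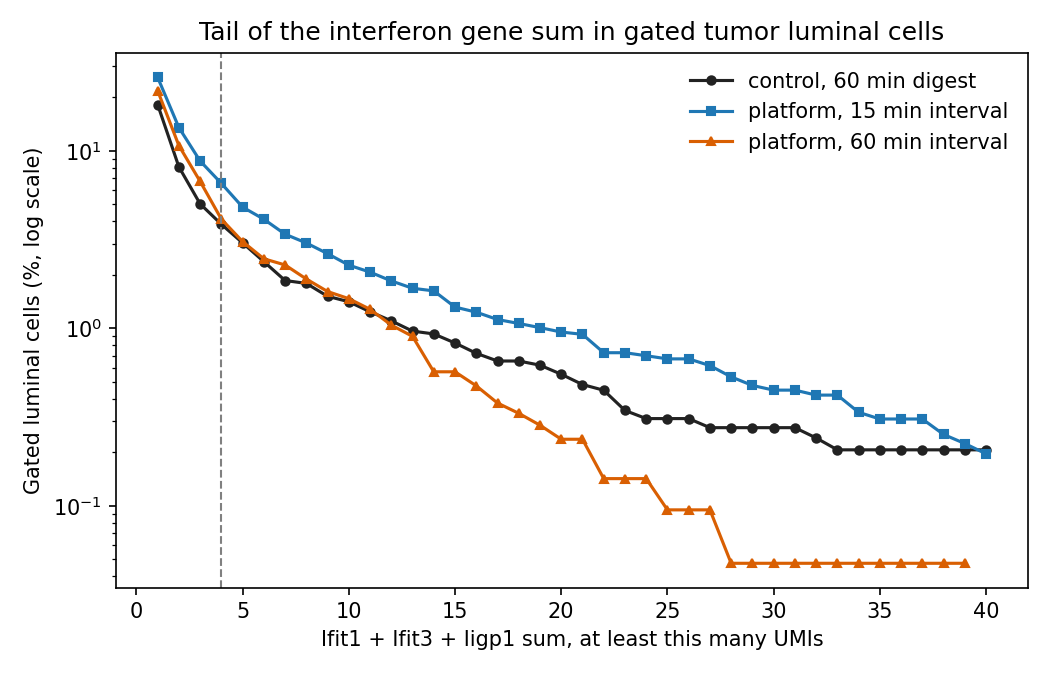
Percent of gated luminal cells (log scale) whose Ifit1, Ifit3 and Iigp1 UMIs summed to at least the value on the horizontal axis, with a line for each tumor library and a dashed line at the limit of 4 UMIs. At sums of 20 or more the 60 min platform library is lowest, with 5 cells against 16 in the control and 34 in the 15 min library.

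The class was drawn from the upper part of a range of the interferon sum, and the limit of 4 UMIs was set by rule. It did not take in all of that part, as 63 of the 153 gated cells with a sum of 10 or more were interferon-high. Of 8588 gated cells, 6670 had none of the 3 genes, 973 had 1 UMI, 344 had 2, 168 had 3 and 108 had 4. Just inside the limit lay 16 interferon-high cells with a sum of 4, and just outside it 11 cells with a sum of 3 that exceeded their other sums. With CPM as UMIs per 1000000 UMIs of all genes, the 11 outside cells (3, 1 and 7 by library) held 24146 CPM of other interferon genes, listed below, and 1728 CPM of Isg15. The 16 inside cells (6, 7 and 3 by library) held 15118 and 937 CPM, and over all gated cells the lists stood at 13472 CPM with a sum of 3 and 15764 with a sum of 4. Across gated cells Isg15, which was not part of the sum, stood at 75.3 CPM with a sum of 0, 209 with 1, 358 with 2, 611 with 3 and 2154 with 10 or more.

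**Figure D2:**
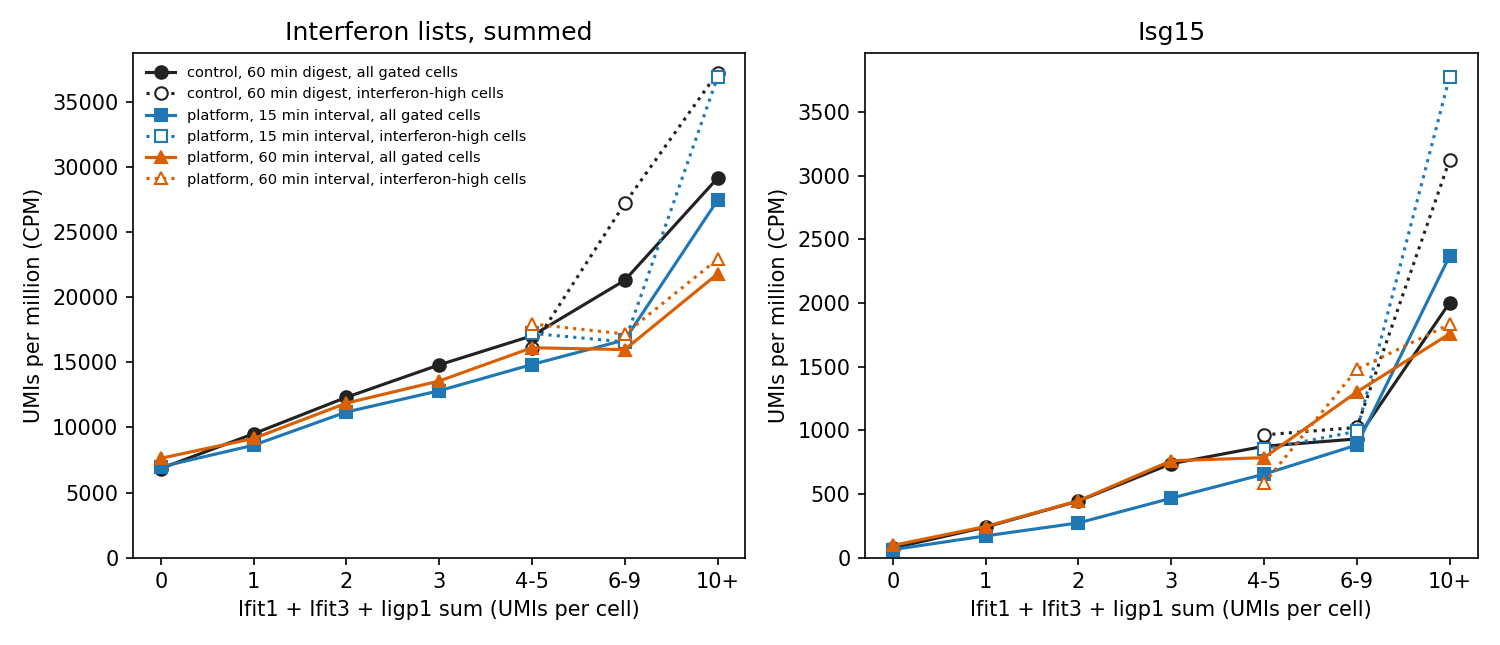
Summed level of the interferon lists (left) and level of Isg15 (right), in CPM, for gated cells grouped by their interferon sum. Lines are the 3 tumor libraries, filled markers and full lines are all gated cells, and open markers and dotted lines are interferon-high cells. Levels are higher at higher sums in each library from 0 to 4-5 UMIs, and interferon-high cells with 10 or more lie at 37261, 36929 and 22932 CPM.

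The genes that chose the cells had the following levels. Ifit1, which encodes a protein that binds foreign RNA ends, stood at 811, 912 and 457 CPM in interferon-high cells, against 18.1, 32.0 and 22 in other gated luminal cells. Ifit3, its binding partner, stood at 556, 479 and 113 against 5.08, 5.60 and 3.27 CPM. Iigp1, a GTPase that acts on the membranes around intracellular parasites, stood at 625, 749 and 534 against 23.5, 37.0 and 28 CPM. The 60 min library was lowest for all 3 genes. Interferon-high cells held 29.8% of all UMIs of these genes in gated cells, so most of those UMIs lay outside the class.

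Genes outside the rule were compared as log2 ratios of CPM with 5 CPM added, interferon-high cells over other gated cells within each library, and called when 2-fold or more in the same direction in 3 of 3 libraries. Of 9350 genes tested (those with at least 5 CPM over gated cells), 81 were higher, 0.866% of them, and 12 were lower, 0.128%. Interferon genes made up most of the higher set. From 10 interferon lists, 182 genes outside the rule were in the matrix and 119 passed the filter on low values, of which 57 were higher (47.9%) and none was lower. The median of the mean log2 ratio was 1.29 over those 119 genes and −0.07 over all tested genes. The filter took in the interferon-high cells, and with at least 5 CPM asked of the other gated cells alone, an alternative chosen after seeing the data, 77 genes were higher, 54 of them among 116 tested list genes. Because a gene that tracks Ifit1, Ifit3 or Iigp1 from cell to cell enters through the choice of cells, these counts are a description. Summed over the 182 genes, interferon-high cells held 30475 (29870 to 31089), 30385 (29930 to 30846) and 20650 (20087 to 21225) CPM. Other gated cells held 8027, 8286 and 8535 CPM, giving ratios of 3.80, 3.67 and 2.42.

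Antiviral effectors, which act directly on viral RNA, proteins or entry, had 22 of 27 tested genes higher, with a median log2 ratio of 2.38 (20 of 25 and 2.36 with the filter on other gated cells alone). Isg15, the marker left out of the rule, stood at 2273, 2849 and 1522 CPM in interferon-high cells against 158, 161 and 189 in other luminal cells, log2 ratios of 3.81, 4.10 and 2.98. It was found in 105 of 108 interferon-high cells (97.2%) and in 35.6% of other gated cells, and after thinning in 91.0% and 28.1%. Free RNA in droplets also gives UMIs, and no gated type here is known to lack these genes, so shares of cells with a UMI carry an unknown background.

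Rsad2, which encodes viperin, an enzyme that makes a chain-terminating nucleotide, had the highest mean log2 ratio of the list. It stood at 701, 892 and 109 CPM against 6.49, 6.00 and 7.29, log2 ratios of 5.94, 6.35 and 3.22. It was detected in 22, 26 and 7 of the interferon-high cells, and the single highest cell gave 32.4%, 44.7% and 37.0% of its UMIs there. Its level therefore rested on a part of the class, 50.9% of the cells, or 42.0% after thinning, against 2.62% and 1.72% of other gated cells.

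The next genes of the list were more evenly spread. Ifit3b, a close copy of Ifit3 whose reads may be split between the copies and which passed the filter only through the interferon-high cells, stood at 215, 481 and 109 CPM against 5.08, 5.09 and 4.11. Oasl2, an oligoadenylate synthetase-like gene, had close log2 ratios in the 3 libraries, at 3.34, 3.44 and 3.25. Ifitm3, which restricts viral entry at membranes, was the most abundant gene of the interferon lists, at 3688, 3271 and 2186 CPM against 582, 583 and 544. Bst2, which tethers virions to the cell surface, stood at 1137, 924 and 854 CPM against 147, 125 and 158.

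Not every antiviral gene was higher. Ifi27 was the only tested list member below the other cells in each library, at 335, 400 and 320 CPM against 425, 412 and 422. Its relative Ifi27l2a had 1017, 674 and 235 CPM against 75.4, 48.4 and 51.9, from 13, 20 and 8 cells. Ifitm2, which neighbors Ifitm3 in function, had log2 ratios of 0.28, 0.02 and 0.45 (chosen after its values were seen). Mx1, a dynamin-like GTPase, was below the filter over all gated cells, and stood at 145, 170 and 32.4 CPM against 1.85, 1.71 and 2.13 (also chosen after its values were seen).

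Genes that attach or remove ISG15, ubiquitin and ADP-ribose had 8 of 12 tested genes higher, with a median log2 ratio of 1.92. Usp18, the protease that removes ISG15 and dampens interferon receptor signalling, led them at 224, 234 and 113 CPM against 8.75, 10.5 and 9.27. Parp14, an ADP-ribosyltransferase, stood at 234, 214 and 223 CPM against 22.2, 28.9 and 25.9. Herc6, the mouse ligase for ISG15, had log2 ratios of 2.95, 3.17 and 2.56, and Dtx3l, a ubiquitin ligase, 2.90, 1.57 and 1.92. Rnf213, a very large ubiquitin ligase, was the most abundant in the control and 15 min libraries, at 281, 295 and 158 CPM against 47.1, 62.6 and 42.8. The summed list stood 6.53, 5.04 and 4.44 times as high as in other gated cells.

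Sensors of foreign nucleic acid had 6 of 11 tested genes higher, with a median log2 ratio of 1.87. Ddx60, a helicase reported to aid RNA sensing, stood at 120, 161 and 85.0 CPM against 8.83, 12.2 and 10.2. Ifih1, which encodes the RNA sensor MDA5, had log2 ratios of 2.23, 2.28 and 2.04, and Znfx1, a helicase-like RNA sensor, had 2.50, 2.39 and 2.32. Zbp1, a sensor of Z-form nucleic acid, was the most abundant, at 218, 236 and 166 CPM against 41.4, 44.3 and 39.5. The RNA helicase Ddx3x had log2 ratios of −0.16, −0.10 and −0.16. The summed list stood 3.21, 3.16 and 2.36 times as high.

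Interferon ligands were not found in the class, and few genes for receptors and relays were called. No UMI of 13 interferon ligand genes was found in interferon-high cells, which allows up to 11.6, 6.59 and 14.9 CPM of their sum, and other gated cells held 1.22, 1.71 and 2.83 CPM. Of the 22 tested genes for signalling and transcription factors, 4 were higher, among them Irf7, Stat2 and Nmi, and the median log2 ratio was 0.11. Irf7, a transcription factor for type I interferon genes, stood at 894, 833 and 676 CPM against 128, 137 and 129, and gave 34.8% of the UMIs of the list. Stat2, a transcription factor of type I interferon signalling, had log2 ratios of 2.18, 2.53 and 1.49, and Nmi, an interferon-induced adaptor, had 1.31, 1.67 and 1.61.

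None of the receptor genes was called, and those given here with Jak1, Irf9 and Irf1 were chosen after their values were seen. Ifnar1, a chain of the type I receptor, had 0, 21.4 and 28.3 CPM against 18, 21.1 and 18, log2 ratios of −2.20, 0.02 and 0.53. The other chain, Ifnar2, had log2 ratios of 0.28, −0.03 and 0.52, the interferon gamma receptor chain Ifngr1 0.56, −0.26 and −0.02, and the kinase Jak1 0.06, −0.14 and −0.21. Irf9, the DNA-binding partner of STAT2, had 1.10, 0.66 and 0.82. Ifnlr1, a chain of the type III receptor and the only tested gene of the list below the others in each library, had −1.05, −0.33 and −0.84 from few UMIs. Irf1, an early target of interferon gamma, differed in sign between libraries, at 0.65, 0.83 and −1.28.

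Interferon-inducible GTPases, which coat pathogen vacuoles and other membranes, had all 7 tested genes higher, with a median log2 ratio of 3.19, the highest of the lists (6 of 6 and 3.08 with the filter on other gated cells alone), and Iigp1, a member of the same families, was in the rule. The summed list stood at 1456 (1326 to 1595), 1478 (1379 to 1583) and 712 (611 to 826) CPM, against 82.9, 108 and 88.4 in other gated cells. Igtp, also called Irgm3, stood at 376, 216 and 162 CPM against 15.3, 20.7 and 17.1, with 40.3% of its control UMIs in the highest cell. Ifi47 stood at 145, 177 and 72.9 CPM against 5.01, 7.05 and 6.79. Gbp2, a guanylate-binding protein, stood at 268, 266 and 117 CPM against 16.8, 18.6 and 18.2. The remaining 4 higher genes, Gm4951, Gbp3, Irgm1 and Gbp7, had log2 ratios from 2.06 to 3.59.

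MHC class I presentation was higher by smaller ratios from a high base. Of 18 tested genes 7 were higher, and 17 had ratios above 0 in every library. Without the highest cell of each gene and library, an alternative chosen after seeing the data, Psmb9, Tap2 and H2-Q6 were not called. B2m, the invariant class I chain, stood at 1569, 1156 and 830 CPM against 329, 276 and 291, and Tap1, a subunit of the peptide transporter, at 148, 168 and 146 against 26.6, 34.8 and 31.3. The immunoproteasome subunit Psmb9 had log2 ratios of 2.36, 2.08 and 1.33. The class I heavy chain H2-D1 was the most abundant, at 2703, 2522 and 2089 CPM against 969, 1024 and 1108, and with H2-K1 it missed the call through the 60 min library, where their log2 ratios were 0.91 and 0.95. H2-T22 and H2-Q6, whose reads may be shared with near-identical H2 genes, are uncertain.

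MHC class II genes, which interferon gamma can induce through Ciita, were not higher in any of the 3 libraries as a sum. The list stood at 114 (79.6 to 157), 75.1 (54.1 to 101) and 85.0 (52.6 to 130) CPM in interferon-high cells against 169, 129 and 257 in other gated cells. Of 4 tested genes none was called. Cd74, the invariant chain, stood at 60.0, 30.4 and 40.5 CPM against 84.2, 64.2 and 141, and H2-Aa at 6.31, 5.36 and 8.10 against 21.4, 13.0 and 32.2. H2-Ab1, a class II beta chain, had log2 ratios of −0.83, −0.31 and −1.68. These transcripts are abundant in leukocytes of the same libraries, at 37606 CPM over all libraries, and the part of free RNA in the low luminal level was not tested.

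**Figure D3:**
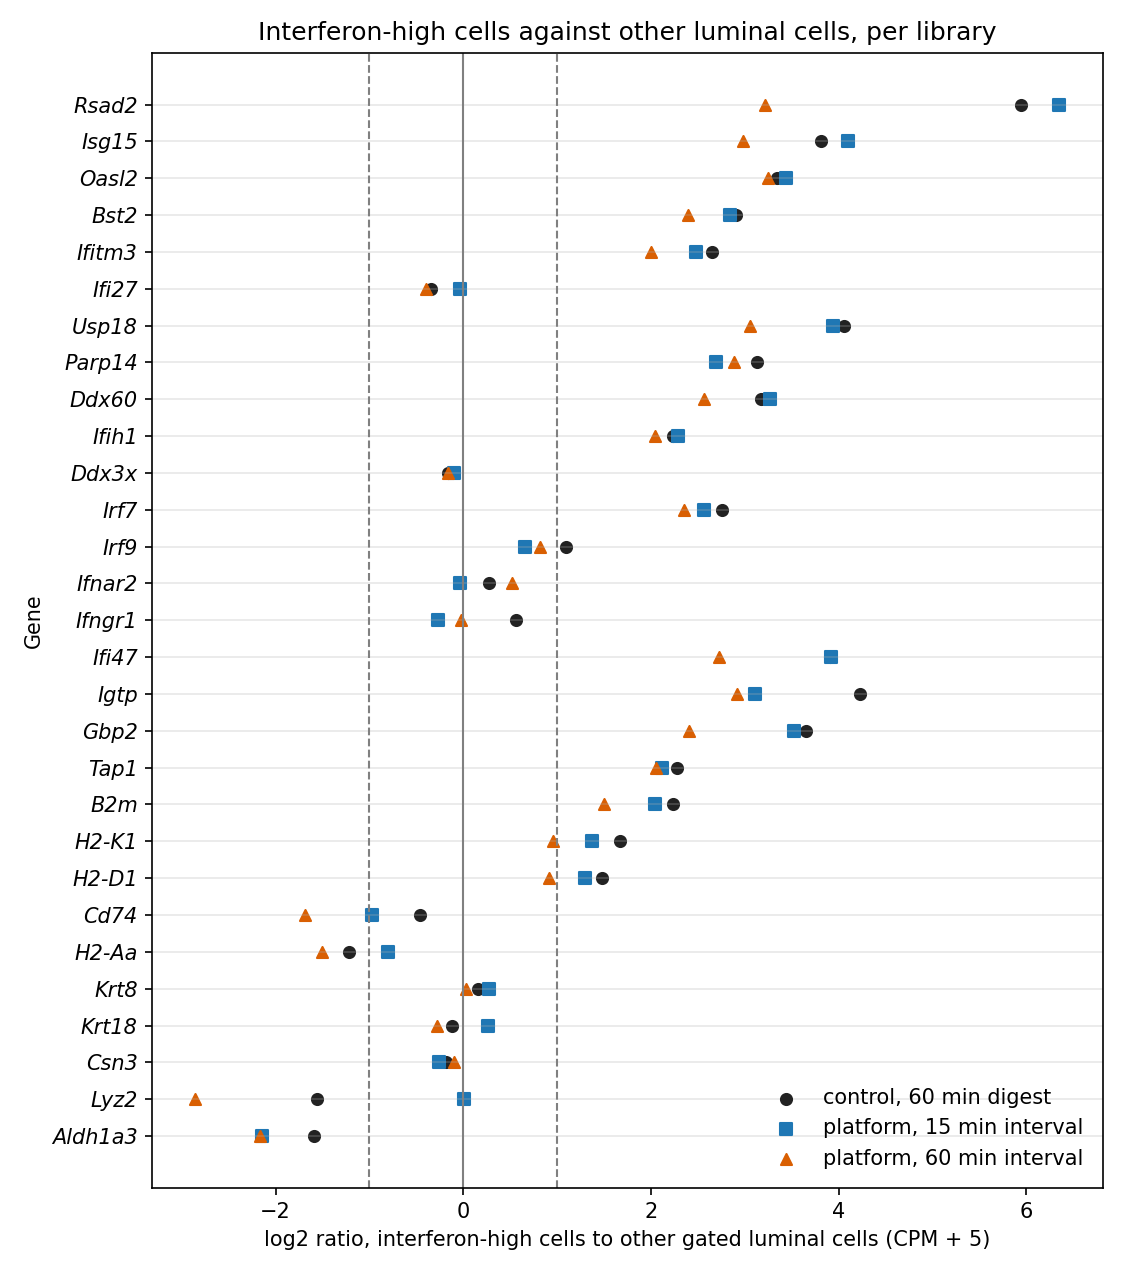
Log2 ratio of interferon-high to other gated luminal cells (CPM with 5 added) for selected genes, with a marker for each tumor library, a line at 0 and dashed lines at −1 and 1. Rsad2 lies farthest right in the control and 15 min libraries, at 5.94 and 6.35, while Ifi27, Ddx3x, Ifnar2, Ifngr1, Krt8 and Krt18 lie within the dashed lines and Aldh1a3 lies at −1.59, −2.15 and −2.16.

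Secreted and surface signals were less uniform. None of 5 tested chemokine genes was called, and the list sum stood 1.49, 2.40 and 0.892 times that of other cells. Ccl2, a monocyte attractant, stood at 31.6, 34.0 and 24.3 CPM against 7.53, 2.25 and 11.5, but from 3, 7 and 1 cells. Cxcl10, a T cell attractant induced by interferon, was found in 3 of 108 interferon-high cells and in 0.908% of other gated cells (chosen after its values were seen). Of 13 tested checkpoint and cell death genes 3 were higher, namely Lgals9, Daxx and Sp100. Lgals9, a galectin that binds checkpoint receptors, stood at 177, 232 and 150 CPM against 33.1, 36.2 and 40.8. Cd274, which encodes PD-L1, was below the filter and was found in 9 of 108 interferon-high cells (8.33%) against 0.436% of others, or 3.00% against 0.246% after thinning (also chosen after its values were seen).

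Of the 81 higher genes, 24 were outside the lists. Among those named by the rule was Tor3a, a torsin ATPase that interferon induces, at 129, 132 and 125 CPM against 9.31, 11.7 and 11.3. Apol9a, an apolipoprotein L gene whose reads may be shared with its copy Apol9b, stood at 158, 156 and 134 CPM against 17.1, 21.7 and 17.1, and Samd9l, an antiviral and growth-restraining gene, at 94.7, 116 and 81.0 against 15.5, 20.9 and 17.6. Apol9b, Tmem140, AW011738, Helz2, Epsti1 and Parp10 were also named, with log2 ratios from 1.29 to 2.66. Fxyd2, Wfdc2 and Slpi completed the named genes, and were found in 5, 27 and 45 interferon-high cells, where Fxyd2 passed the filter only through the 5. Slpi, a secreted protease inhibitor, had 682, 1591 and 1036 CPM against 153, 190 and 348, from 7, 23 and 15 cells, with 75.9%, 39.9% and 27.0% of its UMIs in the highest cell. Without the highest interferon-high cell of each gene and library, 59 genes were higher, 50 of them listed interferon genes, and Fxyd2, Wfdc2 and Slpi were no longer among them, nor were Psmb9, Tap2, H2-Q6, Sp100, Dhx58, Isg20 and Uba7 of the lists.

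The 12 lower genes had few UMIs in interferon-high cells, apart from Scgb2b27, a secretoglobin gene. It stood at 218, 111 and 28.3 CPM against 632, 624 and 213. Aldh1a3, a retinaldehyde dehydrogenase of luminal progenitors, stood at 12.6, 8.94 and 4.05 CPM against 48.0, 56.7 and 35.5, and the casein gene Csn1s2a at 0, 1.79 and 4.05 against 15.9, 33.6 and 23.7. Dppa1, Hepacam2, Dcpp1, Eln, Rrnad1, Cck and Bbox1 had 1 to 8 UMIs in all interferon-high cells, and Slc4a4 and 4930469K13Rik had 0. Those last genes were also low in other gated cells, at 5.75, 10.9 and 5.60 CPM and at 5.19, 5.63 and 5.25 CPM. Their CPM ratios in the 60 min library had intervals up to 2.71 and 2.89. There the interval reached above 1 for each gene of this group except Dppa1, so their direction is uncertain. The rule itself lowers genes that go with the secretory, Aqp5 and kallikrein sums. Asked of only the remaining libraries, which can only add genes, the call gave 56 lower genes without the control, 87 without the 15 min and 45 without the 60 min library.

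Luminal and milk gene lists had sums near those of the other gated cells, though single members differed in sign between libraries. The luminal list, with 0 of 21 tested genes higher and Aldh1a3 lower, had a summed level of 0.955, 1.10 and 0.984 times that of other cells. Krt18, its most abundant gene by UMIs over all libraries, stood at 3442, 2626 and 1984 CPM against 3743, 2189 and 2408. In the control library Krt8 was more abundant, at 3543 CPM. Milk and secretory genes, with 0 of 12 tested higher and Csn1s2a lower, stood at 0.971, 1.03 and 1.07 times, led by Lcn2 at 13305, 14192 and 18848 CPM. The sums that competed in the rule were low by construction, with medians of 3 secretory, 2.5 Aqp5 and 0 kallikrein UMIs per cell against 9, 5 and 0. Among them the Aqp5 sum was highest in 50 interferon-high cells, the secretory sum in 41 and the kallikrein sum in 2, with 8 tied and 7 at 0.

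Markers of other cell types were low, with exceptions carried by single genes. Basal genes stood at 148, 227 and 243 CPM, 70.9% of them Itga6, against 167, 217 and 293, with 2 of 12 genes at 0. The macrophage list stood at 657, 983 and 765 CPM against 646, 538 and 747, with 92.4% of its UMIs from Cd14 and none of 14 genes at 0. The defining macrophage genes Lyz2, C1qa and Tyrobp were at 3.16, 6.31 and 3.16 CPM in the control, 12.5, 7.15 and 5.36 in the 15 min, and 0, 8.10 and 4.05 in the 60 min library. The dendritic list stood at 1140, 924 and 858 CPM against 153, 127 and 164, but 99.8% of its UMIs came from Bst2, which is also an interferon target, and 6 of its 9 genes were at 0. T and NK cell genes summed to 0, 3.57 and 4.05 CPM against 6.53, 3.16 and 5.01, with 9 of 12 at 0. B cell genes summed to 0, 1.79 and 0 CPM, all from Cd79b, with 4 of 5 at 0.

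The granulocyte list stood at 47.4, 231 and 76.9 CPM against 89.3, 48.8 and 87.2, with 94.5% from S100a8, of which a single cell gave 74.0% in the 15 min library, and 3 of 6 genes at 0. Endothelial genes stood at 0, 5.36 and 0 CPM, against 5.23, 6.05 and 7.88, led by Egfl7, with 6 of 8 at 0. Fibroblast and pericyte genes stood at 18.9, 14.3 and 40.5 CPM against 15.2, 53.0 and 276, led by Col3a1, with 4 of 9 at 0. Of the 108 interferon-high cells, 47 had no UMI of the macrophage, T and NK, B cell and granulocyte lists other than Cd14 and S100a8. Against 57 listed interferon genes higher in all of them, 56 were higher in those 47 cells, an alternative chosen after seeing the data. In the 9 cells with no UMI of these lists at all, 26 were higher.

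Cell state lists gave no call in either direction. Genes of the early stress response to dissociation stood at 17561, 11971 and 11351 CPM against 14312, 13881 and 17538, ratios of 1.23, 0.862 and 0.647. Hypoxia and glycolysis genes had ratios of 0.889, 0.961 and 0.763, and genes of the NF-kB response 1.20, 1.52 and 0.873. Cell cycle genes outside the rule had ratios of 0.604, 0.579 and 2.59, and the value of the 60 min library rested on a single cell. Interferon-high cells had median depths of 10048, 10173 and 9435 UMIs against 8507, 9722.5 and 9083.5, and mitochondrial shares of 7.92%, 7.37% and 7.01% against 9.83%, 8.06% and 10.4%.

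By the genes of the rule, the class had 3 makeups. Ifit1 or Ifit3 was found together with Iigp1 in 87 cells, without it in 12, and Iigp1 alone in 9. Cells with both held 2684 CPM of Isg15, 784 of Rsad2 and 1479 of interferon-inducible GTPases. Cells with Ifit genes alone held 1321, 68.5 and 430 CPM, and cells with Iigp1 alone 331, 25.5 and 331. Cells with both also had a higher sum, with a median of 14 UMIs, so their higher levels cannot be told apart from that sum. The other makeups had near medians, 6.5 with Ifit genes alone and 6 with Iigp1 alone, and the cause of their difference was not tested. Of the 9 cells with Iigp1 alone, 5 had UMIs of 3 or more of Areg, Foxa1, Pgr, Esr1 and Fxyd2 (described below). Those 5 held 43.4 CPM of Isg15. Across the 108 cells, which share libraries, Spearman's rho between the interferon sum and Isg15 was 0.62. Each value was divided by the UMIs of its cell, as cells differ in depth, and the shared divisor can itself add to rho. Per cell, the other interferon genes ran from 5620 to 97994 CPM with a median of 24315. The median of other gated cells was 6659, and 79 of the 108 cells lay above their 95th percentile of 17571.

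A small group of Iigp1 cells went against the label. With genes chosen after their values were seen, 5 of the 108 cells had UMIs of 3 or more of Areg, Foxa1, Pgr, Esr1 and Fxyd2, of which Foxa1, Pgr, Esr1 and Areg are known from hormone-sensing luminal cells. They came from every library (1, 2 and 2), and 12 of the 8480 other gated cells were alike. As the genes were picked for their values in interferon-high cells, these counts are a description and test nothing. All 5 had Iigp1 but no UMI of Ifit1, Ifit3 or Rsad2, and 3 of them were the 3 interferon-high cells without Isg15. Their other interferon genes summed to 8630 CPM (7803 to 9521), near the 8260 of other gated cells with fewer than 3 of these genes and below the 10425 (9739 to 11146) of the 12 with 3 or more, whereas the remaining 103 interferon-high cells held 29110 (28789 to 29434). Iigp1 stood at 781 CPM in the 5 cells and at 109 in the 12 others of their kind, against 30.3 in the rest. Without Ifit1 and Ifit3, the 5 cells could enter the class only through Iigp1. The rule itself therefore required a high Iigp1 level in them, and the 781 CPM is a description that cannot be compared with the unselected cells. Esr1, Pgr and Prlr, the receptors for estrogen, progesterone and prolactin, summed to 123, 147 and 219 CPM in all interferon-high cells, against 74.9, 119 and 71.4 in other gated cells, and 94.9% of those UMIs were Prlr. Without the 5 cells the log2 ratios of Prlr were 0.48, −0.77 and −0.37, against 0.61, 0.27 and 1.55 with them.

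Cells led by other sums with an interferon sum of at least 4 had lower summed interferon lists than interferon-high cells. Their median interferon sums were also lower, at 6, 6.5 and 6 for cells led by the secretory, Aqp5 and kallikrein sums, against 11. With a sum of exactly 4, interferon-high cells held 15118 CPM of the lists, against 15764 over all gated cells. Over all libraries the interferon lists stood at 28269 CPM in interferon-high cells, 17667 in such cells led by the secretory sum, 19436 in those led by the Aqp5 sum and 21925 in those led by the kallikrein sum. Without regard to the interferon sum, cells led by these 3 sums held 8323, 8066 and 8317 CPM. The MHC class I list did not follow this in every group, at 8095 CPM in interferon-high cells and 8755 in those led by the kallikrein sum. Isg15 gave the same order for the larger groups, at 2395 CPM in interferon-high cells, 1023 and 1054 in cells led by the secretory and Aqp5 sums with 4 or more interferon UMIs, and 183 and 148 in all cells led by those sums. Leukocytes (2 or more Ptprc UMIs and no Epcam) held more of the lists in all, at 63421 CPM, but of antiviral effectors they held 3887 CPM against 12731 in interferon-high cells, and 37606 CPM of their total was MHC class II. An interferon sum of 4 or more was found in 4.32% of leukocytes.

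Between libraries, tested interferon genes stood lower at the median in interferon-high cells of the 60 min platform library than in those of the control library. Of 9350 genes, 1034 (11.1%) were 2-fold or more higher and 851 (9.1%) lower in that comparison, on 25 and 30 cells. Of the 119 tested interferon genes, 2 were higher and 18 lower (15.1%), with a median log2 ratio of −0.41 against 0.06 in other gated cells. Other lists differed too, with 3 of 12 stress genes lower (25%) at a median of −0.76, against 0.27 in other gated cells, and 5 of 12 milk genes higher. Among milk genes, a single cell held all 167 Csn2 and 100 of 104 Wap UMIs of the 60 min interferon-high cells. For the 15 min library, 926 genes (9.9%) were higher and 417 (4.46%) lower than in the control. Among interferon genes 6 were higher and 4 lower, with a median of 0.06 against 0.18 in other gated cells. With scaling by the median of ratios the 15 min split of all genes was 610 higher and 538 lower, and the 60 min split turned, with 911 higher and 1033 lower. The median log2 ratio of all genes under total scaling was 0.12 at 15 min.

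The order of the libraries differed with the interferon sum. Interferon-high cells with a sum of 4 to 5 held 16141, 17232 and 17956 CPM of the lists and 963, 852 and 584 CPM of Isg15, on 9, 10 and 5 cells. Those with exactly 4 held 14274, 17537 and 11500 CPM of the lists, on 6, 7 and 3 cells. Those with 6 to 9 held 27225, 16577 and 17184 CPM, on 5, 10 and 6 cells, and those with 10 or more 37261, 36929 and 22932, on 16, 33 and 14 cells. Isg15 stood at 1022, 991 and 1478 CPM with a sum of 6 to 9, and at 3123, 3776 and 1832 CPM with 10 or more. The interferon sum itself, used by the rule, had medians of 10.5, 14 and 10 and highest values of 100, 162 and 27 UMIs, so the upper tail was shorter in the 60 min library. Effects of protocol, tissue piece and few cells cannot be told apart here.

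By gene, the lower values of the 60 min library included Rsad2, at 109 CPM (72.0 to 159) against 701 (612 to 799) in the control, while other gated cells had a log2 ratio of 0.10. Ifit2, Ifi203, Ifi204 and Gbp9 were below the filter over gated cells and so are not among the tested genes counted above. Ifit2, a partner of Ifit1 and Ifit3, had 0 UMIs (up to 14.9 CPM) against 53.7 (31.3 to 85.9). Ifi203 and Ifi204, of the DNA-sensing p200 family, had 8.10 and 4.05 CPM against 145 and 53.7, each from 1 cell, and Gbp9 8.10 against 91.6, also from 1 cell. Socs3, which restrains JAK signalling, stood at 28.3 against 145, with 54.3% of the control UMIs from 1 cell, Ifi27l2a at 235 against 1017, and the neutrophil attractant Cxcl2 at 16.2 against 186, where 61.0% of the control UMIs came from 1 cell. Higher in both platform libraries was Ifnar1, with 0 UMIs (up to 11.6 CPM) in the control and 21.4 (11.1 to 37.5) and 28.3 (11.4 to 58.4) CPM in the 15 min and 60 min libraries. Tapbpl, a peptide editor for class I, stood at 3.16, 21.4 and 28.3 CPM. Ccl20, below the filter over gated cells, was also past 2-fold in the 60 min library, but from 1 cell there and 1 in the control.

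The 15 min library also differed from the control in some genes, of which Ifi203, Ifi204, Jak2 and Cxcl2 were lower in both platform libraries. Ifit3b stood at 481 (425 to 542) against 215 (167 to 272) CPM, Parp12 at 82.2 against 34.7, Samhd1, which depletes nucleotides, at 204 against 94.7, and Socs1, an inhibitor of JAK kinases, at 57.2 against 9.47. Lower were Ifi203 at 34.0 against 145, Ifi204 at 17.9 against 53.7 and Cxcl2 at 35.7 against 186. Jak2, a receptor-bound kinase, was also lower, at 10.7 against 31.6, and stood at 8.10 CPM in the 60 min library. Cxcl2 had a log2 ratio of −3.11 in other gated cells too, so its difference was not limited to interferon-high cells. Ccl20 had 0 UMIs against 41 CPM from 1 control cell.

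Promoter sequences were read for what the higher genes share. The windows are RefSeq promoters of GRCm38.p6, from 250 bases before to 50 after a gene's start, and 46 of the 57 higher interferon-list genes had one or more. The interferon-stimulated response element was searched as TTTCNNTTTC on both strands. The response element was in windows of 21 of those 46 genes (45.7%), of 9 of 50 tested list genes that were not higher (18%), and of 3.62% of 7381 tested genes, or 3.99% of all 27025 genes with a window. It was in 9 of 10 GTPase genes (90.0%), 17 of 31 antiviral effectors (54.8%) and 4 of 17 higher genes outside the lists (23.5%). It was in 1 of 9 conjugation genes (11.1%), of which most tested ones were higher, and in 6 of 13 interferon ligand genes (46.2%), which had no UMI in the class. A match is a description of the letters in the window and not evidence of binding, and the lists were in part compiled from genes known to respond to interferon.

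The windows below are shown as examples of the RNA-binding, modifier, antiviral, GTPase and antigen presentation groups, where Ifit1 was high by the choice of cells, and capitals mark the response element on either strand. Ifit1 (ENSMUSG00000034459) spans chr19:34640871-34650009 on the plus strand and its window chr19:34640639-34640938. Isg15 (ENSMUSG00000035692) spans chr4:156199424-156200818 on the minus strand and its window, with overlapping matches, chr4:156200769-156201068. Rsad2 (ENSMUSG00000020641) spans chr12:26442746-26456452 on the minus strand and its window chr12:26456403-26456702. Igtp (ENSMUSG00000078853) spans chr11:58199556-58207591 on the plus strand and its window chr11:58199306-58199605. B2m (ENSMUSG00000060802) spans chr2:122147686-122153083 on the plus strand and its window chr2:122147437-122147736. Each window holds the upstream flank and the first transcribed bases.
Ifit1: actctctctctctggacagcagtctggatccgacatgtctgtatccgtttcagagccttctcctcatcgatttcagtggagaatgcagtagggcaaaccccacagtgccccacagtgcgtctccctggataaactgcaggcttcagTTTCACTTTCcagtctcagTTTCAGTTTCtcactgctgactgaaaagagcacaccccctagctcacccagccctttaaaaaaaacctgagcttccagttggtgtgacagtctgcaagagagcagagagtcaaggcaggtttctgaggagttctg
Isg15: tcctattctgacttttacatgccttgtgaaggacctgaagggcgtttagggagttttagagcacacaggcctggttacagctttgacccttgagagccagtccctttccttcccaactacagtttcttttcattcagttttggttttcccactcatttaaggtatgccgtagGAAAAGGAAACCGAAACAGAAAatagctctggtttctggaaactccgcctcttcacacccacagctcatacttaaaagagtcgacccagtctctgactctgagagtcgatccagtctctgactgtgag
Rsad2: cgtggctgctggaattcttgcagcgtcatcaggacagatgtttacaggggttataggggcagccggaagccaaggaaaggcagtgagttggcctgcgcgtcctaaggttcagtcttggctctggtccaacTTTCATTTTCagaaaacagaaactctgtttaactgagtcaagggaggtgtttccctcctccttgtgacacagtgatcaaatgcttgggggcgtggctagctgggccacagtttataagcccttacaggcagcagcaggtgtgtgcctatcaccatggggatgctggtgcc
Igtp: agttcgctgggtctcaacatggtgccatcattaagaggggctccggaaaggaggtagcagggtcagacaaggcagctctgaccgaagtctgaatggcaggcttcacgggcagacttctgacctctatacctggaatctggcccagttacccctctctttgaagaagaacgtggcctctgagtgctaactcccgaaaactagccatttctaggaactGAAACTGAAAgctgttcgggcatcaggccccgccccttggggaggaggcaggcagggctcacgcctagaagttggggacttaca
B2m: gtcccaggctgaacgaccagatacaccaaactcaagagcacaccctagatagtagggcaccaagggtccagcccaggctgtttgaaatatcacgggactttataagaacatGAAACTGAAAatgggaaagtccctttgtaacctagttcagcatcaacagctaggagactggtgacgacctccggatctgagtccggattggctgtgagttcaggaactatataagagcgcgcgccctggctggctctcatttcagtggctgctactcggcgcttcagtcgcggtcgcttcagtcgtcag
The same letters were not found in the windows of Irf7, Oasl2, Ifi47, Tap1 and Psmb9, all of them higher.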

How the data were processed

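Counts were made by the authors with Cell Ranger 3.1.0 and mm10, as credited in the submitters' processing notes. Its aggr step had evened read depth among libraries before deposit. The deposited table gives UMIs of 31053 genes, and libraries were told by barcode suffix. Counts were summed per library over interferon-high and other gated cells and scaled to 1000000 UMIs of all genes. Python 3.11.15, numpy 2.4.6, scipy 1.17.1 and pandas 2.3.3 were used, and the fold step was tested on simulated data. Members and the 24 gene lists (10 of interferon genes, 14 of cell types and states) were chosen with earlier results of these data known. The rule for named genes took those of the cell rule and Isg15, up to 4 highest ratios and 2 highest levels of each interferon list, list members at or below 0 in all libraries, 12 unlisted genes in each direction, the 3 highest levels of each cell type list, and the 8 largest differences each way between libraries among interferon-list genes with at least 20 CPM. The text gives some of these, and genes outside the rule were chosen after their values were seen. Some items, a further motif among them, are not reported here. Alternatives changed the interferon sum, gate, depth, filter, pseudocount, scaling and libraries.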

Additional observations from a re-analysis of the deposited data

How the results depend on the processing

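The share of interferon-high cells stayed within its counting interval with an interferon sum of at least 3 or 6, without upper limits on genes and mitochondrial share, and with 1 Epcam UMI. It moved in the 15 min library after thinning (1.11%), in all 3 libraries with a sum of 4 or more and no other condition (3.85%, 6.55% and 4.12%), and without Iigp1 in the sum (0.482%, 0.952% and 0.568%). The 81 higher genes ranged from 59 to 105 over all alternatives, and the mean ratio of summed lists, 3.29, from 2.56 to 3.84. The 105 came without the 60 min library, and leaving out a library can only add genes to the call. With all libraries the highest count was 100, in the 9 cells without leukocyte-list UMIs. Listed higher genes, 57, ranged from 50 to 67 except for 26 in the 9 cells without any leukocyte-list UMI.

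The count of lower genes was the least stable. Against 12, it was 21 with a sum of at least 6, 69 after thinning, 44 with 1 CPM added, 1845 in the 9 cells without leukocyte-list UMIs, and 56, 87 and 45 without the control, 15 min or 60 min library. Under alternatives chosen after seeing the data it was 136 without each gene's highest cell, 95 in the 47 cells without leukocyte-list UMIs other than Cd14 and S100a8, and 4 for all gated cells with a sum of 4 or more against the rest.

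Between libraries, adding 1 CPM gave 1454 higher and 716 lower genes at 15 min and 1566 and 1345 at 60 min. Thinning gave 1622, 951, 1696 and 1746, and scaling by the median of ratios gave 610 higher at 15 min. The cause of these shifts was not tested.

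The values describe 1 library per condition, so differences between libraries carry tissue piece, protocol and capture together. Sums of 25 to 53 cells per library leave genes of low level uncertain, and single cells carried part of some values. The cells were chosen by 3 interferon genes, so genes that track these are higher in part through the choice. Doublets and free RNA were not modelled. All conditions of a replicate came from the same mouse, so no spread between animals was seen. RNA levels were measured, and neither interferon protein nor its source was. The MMTV-PyMT tumor is a transgenic mouse model. No paired analysis of conditions was possible because each had 1 library.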

Other observations

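Single cells carried several values of the 60 min platform library, in genes chosen after their values were seen. An interferon-high cell with an interferon sum of 27, the highest among those of that library, held all 32 UMIs of Birc5, all 22 of Ube2c, all 7 of Cdk1 and 7 of 8 of Ccnb1 found in its interferon-high cells, with no Mki67 and 1 Top2a UMI, and 57 UMIs of Isg15. Another cell, with a sum of 17, held all 167 UMIs of the casein gene Csn2 and 100 of 104 of the whey protein gene Wap.

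Of the 5 interferon-high cells with UMIs of 3 or more of Areg, Foxa1, Pgr, Esr1 and Fxyd2, a cell of the 15 min library held 355 of the 890 Slpi UMIs of that library's interferon-high cells. Without the 5 cells the log2 ratios of Wfdc2 were 0.52, 0.80 and 0.96 and those of Slpi 1.99, 2.36 and 1.35 in the control, 15 min and 60 min libraries, and 84 genes were higher.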
